A study of Mus musculus with 6 samples.

Results

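A set of 10 genes of plasma membrane amino acid transport were taken by symbol from a table of 19973 genes measured in mouse peritoneal macrophages, and all 10 were present. They were Slc3a2, Slc7a5, Slc7a11, Slc7a7, Slc7a1, Slc38a1, Slc38a2, Slc1a4, Slc1a5 and Slc6a9. The cells came from male C57BL/6 mice, an inbred laboratory strain, that were 18 months (old) or 2 months (young) of age. Every mouse in both groups had received 200 µg of zymosan A, a yeast cell wall preparation that starts a passing inflammation, into the peritoneal cavity. Peritoneal cells were washed out 72 hours later and grown overnight in medium with L-cell supernatant, a source of macrophage growth factor. Cells that had attached were then held for 6 hours with vehicle only, which was PBS. The vehicle arm comprised 3 libraries from each age, and the arm with the lipid mediator RvD2 is not analysed here. The labels do not say whether a library was 1 mouse, a pool or a second run, so the p-values speak to the spread between libraries and not between animals.

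Amino acids cross the plasma membrane through carriers that either exchange an amino acid for another or couple its uptake to sodium. Slc3a2 encodes a glycoprotein heavy chain that carries several Slc7 light chains to the cell surface, and the light chain sets the substrate: large neutral amino acids for Slc7a5 and Slc7a8, cystine against glutamate for Slc7a11, cationic amino acids against neutral ones for Slc7a6 and Slc7a7. Slc7a1 and Slc7a2 take up arginine and lysine without a heavy chain. Slc38a1 and Slc38a2 bring in glutamine and other small neutral amino acids with sodium, Slc1a4 and Slc1a5 exchange alanine, serine, cysteine and (Slc1a5) glutamine, and Slc6a9 takes up glycine. In macrophages such carriers feed protein synthesis, glutathione, nitric oxide and the nutrient-sensing kinase complex mTORC1. Several of these genes are known targets of Atf4, a transcription factor induced by amino acid shortage.

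Recovered read totals ran from 8163016 to 13007604 and the ages overlapped in depth. Old replicate 3 and young replicate 3 stood at opposite ends of the second principal component, which held 18.2% of the variance. Old replicate 3 also had 1.34% of its reads on ribosomal RNA genes, against 0.0177% to 0.154% in the others. Summed macrophage markers were far above those of any other cell type, at 349434 to 435743 normalized counts in old libraries and 283100 to 359997 in young ones. Lyz2 and Csf1r were the highest, and most of the sum was Lyz2 (296549 to 375055 in old and 238297 to 306878 in young). Of the 10 macrophage markers, 6 were higher and 2 lower in old libraries. Markers of several other cell types differed with age too. All 10 B cell markers were higher in old libraries (sums of 1685 to 3361 in old and 126 to 131 in young). So were 5 of 6 tested of the 10 mast cell markers (578 to 648 and 54.3 to 79.4). Both tested of the 10 neutrophil markers were also higher (994 to 1102 and 488 to 498). The neutrophil sum was mostly S100a8 and Csf3r, and 6 of the 10 neutrophil markers had no values. T and NK cell markers summed to 59.7 to 86.3 in old libraries and 4.23 to 9.65 in young ones. Trac, Trbc2 and Ncr1 were at 0 in the young, and none of the T and NK cell markers reached the filter for testing. Sums of fibroblast and mesothelial markers overlapped between ages (685 to 771 in old and 662 to 804 in young). Of 5 tested, 2 were higher and 1 lower in old libraries. All 10 proliferation markers were lower in old libraries, with sums of 3984 to 4217 against 24930 to 28174. The part of these differences in the results below was not tested.

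Transcripts of 7 of the 10 transporter genes were lower in old than in young macrophages, and none passed the test as higher. Slc7a5 fell 10.6-fold, Slc1a4 6.07-fold and Slc7a1 2.85-fold, while Slc38a1, Slc38a2, Slc1a5 and Slc3a2 fell by 1.39-fold or less. Slc7a11, Slc6a9 and Slc7a7 did not pass. Slc1a4 averaged 9.37 normalized counts in old libraries and reached the filter mean of 10 only through the young libraries. Over all 11795 features tested, 17.6% were lower and 17.9% higher in old libraries (limma, adjusted p under 0.05). The median log2 fold change, old minus young, was -0.35 over the 10 genes and 0.00014 over all features. In each of the 7 genes every old library lay below every young one, which held for 23.6% of all features. On recovered reads, edgeR and DESeq2 called the same 7 genes lower, where they called 19.2% and 16% of all features lower. Summed over the 10 genes, normalized counts were 12781 to 12946 in old libraries and 16031 to 17689.5 in young ones. In such bulk samples, fewer cells that carry a transcript and less of it per cell cannot be told apart.

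**Figure D1:**
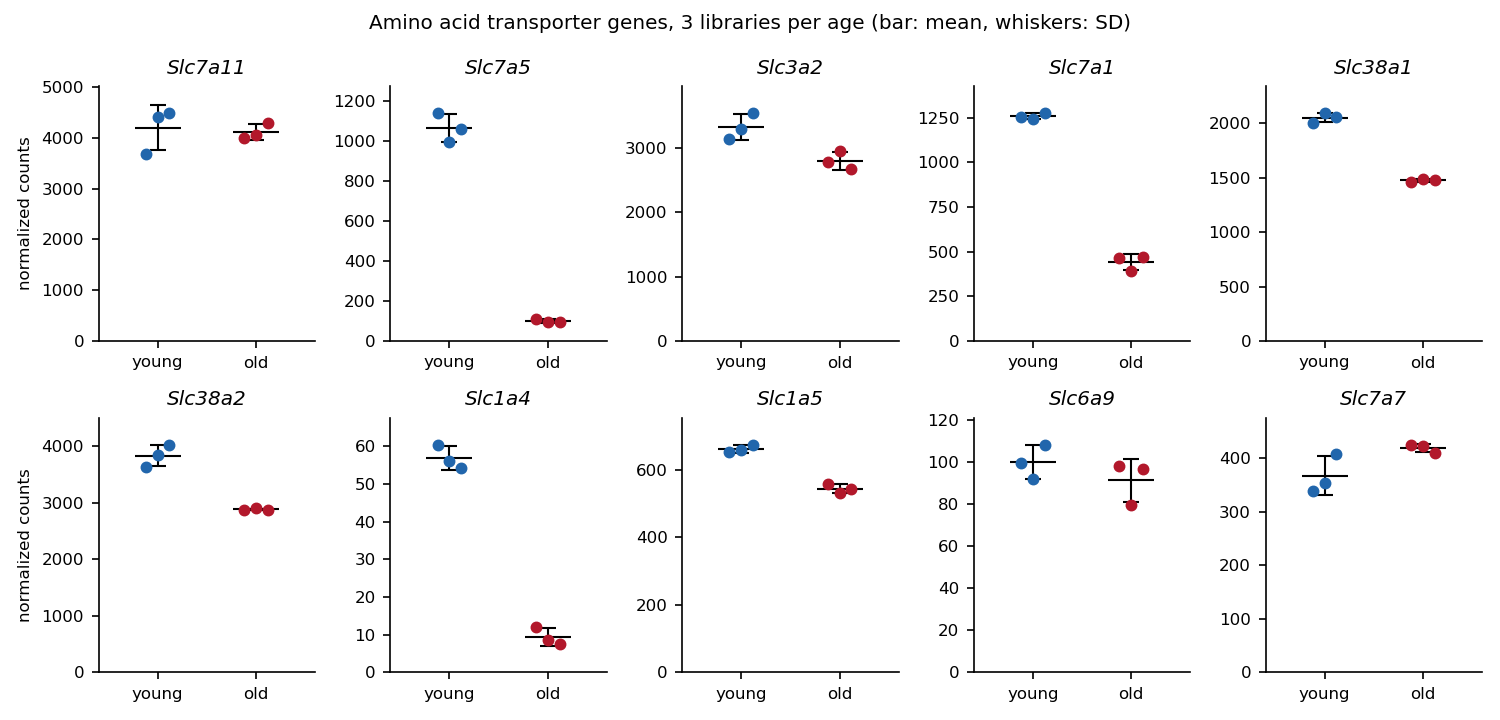
Normalized counts (vertical axes, each from 0) of the 10 transporter genes in 3 young (blue) and 3 old (red) libraries, with the mean as a bar and the SD as whiskers. The ages stand widest apart in Slc7a5, Slc1a4 and Slc7a1, and overlap in Slc7a11 and Slc6a9.

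RefSeq promoters (GRCm38.p6) were matched for 7 of the 10 genes. Slc7a5, Slc38a1 and Slc1a5 were not matched. Sequences are printed only for genes with a searched motif in the stretch around their most upstream RefSeq start. Those of Slc3a2 and Slc6a9 held none in that stretch and are left out. Any part of the motifs in the age differences was not tested. The motifs searched on both strands were TGATGNAA, the form bound by Atf4 with a C/EBP partner, TGACNNNGC, the antioxidant response element bound by Nfe2l2, and CACGTG, the E-box bound by Mitf, Tfeb and Tfe3. No match overlapped a match of another motif. Each line holds 100 bases before and 10 bases after a RefSeq start, 5′ to 3′ on the gene's strand, with the matched motif in capitals.
Slc7a11, chr3:50443604-50443713, minus strand, TGATGNAA on both strands: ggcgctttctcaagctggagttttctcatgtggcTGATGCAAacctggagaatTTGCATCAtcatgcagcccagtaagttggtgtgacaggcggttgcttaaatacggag
Slc1a4, chr11:20332704-20332813, minus strand, TGATGNAA on the reverse strand: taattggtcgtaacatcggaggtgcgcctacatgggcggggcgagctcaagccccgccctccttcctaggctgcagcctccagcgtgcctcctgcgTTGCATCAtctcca
Slc7a7, chr14:54417935-54418044, minus strand, TGATGNAA: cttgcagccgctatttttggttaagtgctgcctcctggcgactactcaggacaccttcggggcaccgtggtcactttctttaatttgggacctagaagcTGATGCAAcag
Slc7a1, chr5:148399895-148400004, minus strand, TGACNNNGC on the reverse strand: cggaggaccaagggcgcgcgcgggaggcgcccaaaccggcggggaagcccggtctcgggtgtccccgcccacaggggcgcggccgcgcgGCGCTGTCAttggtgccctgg
Slc38a2, chr15:96699719-96699828, minus strand, TGACNNNGC: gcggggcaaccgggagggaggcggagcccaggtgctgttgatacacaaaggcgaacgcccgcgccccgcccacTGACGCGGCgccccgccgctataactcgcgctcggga

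In the 250 bases before the start, TGATGNAA stood in 3.45% of 32851 promoters and in 2 of the 7 matched genes, Slc7a11 and Slc7a7. For each motif the share counts promoters, while a gene counts if any of its RefSeq promoters held a match. The shares and the gene counts are thus in unlike units, which favours genes with several promoters. Over the whole window of 300 bases the share was 3.97% and Slc1a4 joined them, with a match from 4 bases before to 4 bases after its start. In Slc7a11 the matches lay 66 to 59 and 47 to 40 bases before the start. In Slc7a7 the match printed runs from 1 base before to 7 bases after the start shown, and the same bases lie 243 to 236 bases before another RefSeq start of the gene. A further Slc7a7 match, 141 to 134 bases before the start shown, lies outside the stretch printed. TGACNNNGC stood in 10.2% of promoters over the 250 bases and in Slc38a2, Slc6a9 and Slc7a1. The match lay 11 to 3 bases before the start in Slc7a1 and 27 to 19 in Slc38a2. In Slc6a9 it lay 46 to 38 bases before a RefSeq start and 45 to 37 before another, neither of them printed. CACGTG stood in 6.02% of promoters and in 0 of the 7 genes. A match is a stretch of letters and not a shown binding site. The genes with TGATGNAA included Slc1a4, which fell with age, and Slc7a11 and Slc7a7, which did not pass the test.

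Of the heavy chain and its light chains among the 10 genes, Slc3a2 and Slc7a5 fell with age, and Slc7a11 and Slc7a7 did not pass. Slc3a2 (chr19:8706882-8723369, minus strand of GRCm38, as are all positions below) had 2778, 2958 and 2675 normalized counts in old replicates 1 to 3 and 3145, 3294 and 3543 in young replicates 1 to 3. Every old library lay below every young one, by a small margin. The means were 2804 ± 144 and 3327 ± 201 (SD, n = 3 each), a 1.19-fold fall with a log2 difference of -0.25 ± 0.072 (SE, 95% interval -0.41 to -0.083, adjusted p = 0.0262). This call rested on single libraries: the adjusted p was 0.0926 without old replicate 1, 0.0884 without young replicate 2 and 0.0737 without young replicate 3. It was 0.0660 in limma without the trend.

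Slc7a5, the light chain LAT1 that imports leucine and other large neutral amino acids, had the lowest log2 fold change of the 10 genes. On chr8:121881150-121907694, minus strand, it had 111, 93.2 and 96.5 normalized counts in the old libraries and 1139.7, 996 and 1061 in the young. These values stood on 76 to 109 reads per old library and 1133 to 1256 per young library, so no old library came near a young one. The means were 100.3 ± 9.55 and 1066 ± 72.0 (SD, n = 3 each). The log2 difference was -3.40 ± 0.096 (SE, 95% interval -3.61 to -3.18, adjusted p = 5.40e-08). Of the 11795 features tested, 24 had a lower log2 fold change. Over 18 other ways of processing, the log2 difference of Slc7a5 stayed between -3.47 and -3.28 and passed each time.

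Slc7a11, the cystine and glutamate exchanger that feeds glutathione synthesis, showed no called difference. On chr3:49892526-50443614, minus strand, it had 4002, 4059 and 4292 in old libraries and 3691, 4420.5 and 4485 in young ones. Young replicate 1 was the lowest of all and the groups overlapped. The means were 4118 ± 153 and 4199 ± 441 (SD, n = 3 each), with a log2 difference of -0.023 ± 0.087 (SE, 95% interval -0.22 to 0.17, adjusted p = 0.856). Its sign turned with median centring (0.031) and without young replicate 2 (0.017) or young replicate 3 (0.027).

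Slc7a7, which exports cationic amino acids in exchange for neutral ones, leaned the other way. On chr14:54369442-54417780, minus strand, it had 425, 423 and 410.2 normalized counts in old libraries and 340.0, 354 and 409 in young ones. Each old library lay above each young one, with young replicate 3 just below old replicate 3. Such an order held for 24% of all features. The means of 419.6 ± 8.18 and 368 ± 36.5 (SD, n = 3 each) gave a log2 difference of 0.20 ± 0.088 (SE, 95% interval -0.0034 to 0.39, adjusted p = 0.116). It passed without young replicate 3 (adjusted p = 0.0353), without both libraries numbered 3 (0.00437), with quantile normalization (0.0392), median centring (0.0358) and array quality weights (0.00336). Its exons share 232 bases, 7.0% of their length, with Oxa1l on the opposite strand, and reads there cannot be told apart without strand. Oxa1l had a log2 difference of 0.075 (adjusted p = 0.546).

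Levels were also set per length as TPM (the length-scaled share of a library, from recovered reads and the summed exon length), and on this scale the makeup of the light chains differed between ages. The summed level of Slc7a5, Slc7a6, Slc7a7, Slc7a8 and Slc7a11 was 266 ± 27.6 TPM in old libraries and 444 ± 14.6 TPM in young ones (SD, n = 3 each). The level of Slc3a2 was 209 ± 8.23 and 271 ± 4.76 TPM, so that the ratio of light to heavy chain transcripts was 1.27 ± 0.0992 in old and 1.64 ± 0.0749 in young. Of the light chain sum, Slc7a5 made up 2.69 ± 0.245% in old libraries and 18.7 ± 1.56% in young ones. Slc7a11 took 29.4 ± 0.794% and 19.6 ± 1.73%, and Slc7a7 took 12.6 ± 0.552% and 7.19 ± 0.630%. The share of Slc7a8 was 47.4 ± 0.752% in old and 48.6 ± 1.5% in young. Shares depend on the length used. With the median transcript length in place of summed exons, Slc7a5 took 4.56% in old and 30.9% in young. Slc7a11 took 43.2% and 28.1%, and Slc7a8 21.5% in both, so the order of the light chains is not settled. On that length the ratio of light to heavy chain transcripts was 1.03 in old and 1.36 in young. For Slc3a2 the ages lay further apart in TPM than in normalized counts (means of 2804 in old and 3327 in young).

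**Figure D2:**
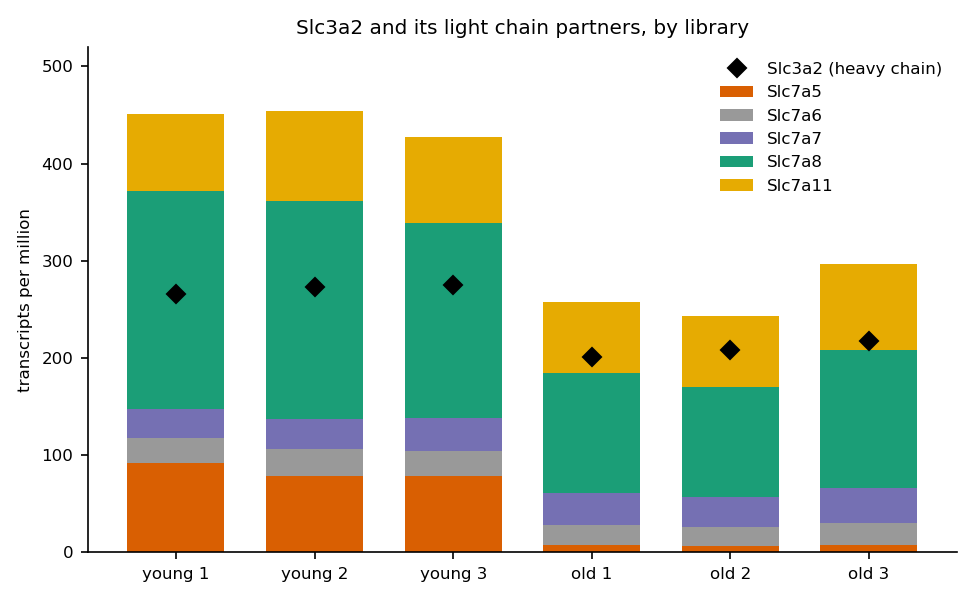
Levels in TPM (vertical axis, from 0) of the light chain genes Slc7a5, Slc7a6, Slc7a7, Slc7a8 and Slc7a11, stacked, in each young and old library, with Slc3a2 as a diamond. The Slc7a5 part is 17.3% to 20.4% of the stack in young libraries and 2.52% to 2.97% in old ones.

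Ratios between pairs of genes within a library were compared for 7 pairs, picked with results of these data known. Slc7a5 stood at 3.00% to 3.81% of Slc3a2 in old libraries and 28.5% to 34.5% in young ones. Slc7a11 stood at 34.8% to 40.7% of Slc3a2 in old and 29.7% to 34.0% in young, and Slc7a7 at 15.2% to 16.3% and 11.4% to 12.3%. Against Slc7a8, Slc7a5 stood at 5.27% to 6.21% in old and 35.1% to 41.1% in young. None of these ratios overlapped between ages, and each had a 2-sided exact permutation p of 0.1 (0.14 adjusted over the 7 pairs). That is the smallest p that 3 against 3 libraries allow. Among single features such separation was common: all old libraries lay below all young in 23.6% of them and above in 24%. The length used moves the level of each ratio by the same factor in every library, not its age difference or its p.

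Among cationic carriers, Slc7a1, the main arginine and lysine importer of many cells, fell with age. On chr5:148327410-148399904, minus strand, it had 462, 389 and 469.9 normalized counts in old libraries and 1255, 1243 and 1273 in young ones. The young libraries were nearly equal and all lay far above the old. The means were 440.4 ± 44.8 and 1257 ± 15.2 (SD, n = 3 each), a log2 difference of -1.52 ± 0.084 (SE, 95% interval -1.71 to -1.33, adjusted p = 1.32e-06). It passed under all 18 alternatives, between -1.57 and -1.43. Slc7a2, its relative known for arginine supply in activated macrophages, was 172 ± 15.9 in old libraries and 448 ± 24.4 in young ones, 2.60-fold lower in old (adjusted p = 5.34e-06). The ratio of Slc7a1 to Slc7a2 per length overlapped between ages, at 162% to 227% in old and 213% to 231% in young (exact permutation p = 0.7), or 381% to 535% and 502% to 546% with the median transcript length.

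The sodium-coupled carriers Slc38a1 and Slc38a2 both fell, 1.39-fold and 1.33-fold. Slc38a1 (chr15:96571418-96642913, minus strand) had 1461.5, 1486 and 1479.6 normalized counts in old libraries and 2007, 2094 and 2058 in young ones. Within each age the libraries were tight and the gap between ages was many times their spread. The means were 1476 ± 12.6 and 2053 ± 43.6 (SD, n = 3 each), with a log2 difference of -0.48 ± 0.059 (SE, 95% interval -0.61 to -0.34, adjusted p = 0.000229). Slc38a2 (chr15:96687392-96699730, minus strand), known to rise when amino acids run short, had 2873, 2899 and 2875 in old libraries and 3640.3, 3840.5 and 4024 in young ones. Here the old libraries were almost equal and the young ones spread more. The means were 2883 ± 14.7 and 3835 ± 192 (SD, n = 3 each), with a log2 difference of -0.41 ± 0.065 (SE, 95% interval -0.56 to -0.26, adjusted p = 0.00100). Slc38a1 stood at 26.1% to 26.4% of Slc38a2 per length in old libraries and 26.2% to 28.3% in young ones (exact permutation p = 0.3), and at 73.6% to 74.5% and 74.0% to 79.8% with the median transcript length. These neighbours on chromosome 15 both passed under all 18 alternatives.

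The small neutral amino acid exchangers Slc1a4 and Slc1a5 both fell, 6.07-fold and 1.22-fold. Slc1a4 (chr11:20302180-20332713, minus strand) had 12, 8.55 and 7.62 normalized counts in old libraries and 60.4, 56.2 and 54.1 in young ones. That is 6 to 10 reads per old library against 60 to 64 per young library, so the old level is known only roughly. The means were 9.37 ± 2.28 and 56.9 ± 3.20 (SD, n = 3 each), with a log2 difference of -2.50 ± 0.26 (SE, 95% interval -3.08 to -1.92, adjusted p = 7.28e-05). Its old mean lies under the filter of 10, which the gene passed through the young libraries. Slc1a5 (chr7:16781340-16798274, plus strand), a glutamine carrier, had 557, 531 and 544 in old libraries and 653, 657 and 673 in young ones. The old libraries were all lower, and the means were 544 ± 13.0 and 661 ± 10.9 (SD, n = 3 each). The log2 difference was -0.28 ± 0.065 (SE, 95% interval -0.43 to -0.13, adjusted p = 0.00855). Per length, Slc1a4 stood at 1.49% to 2.28% of Slc1a5 in old libraries and 8.54% to 9.83% in young ones (exact permutation p = 0.1, adjusted 0.14). With the median transcript length it stood at 0.264% to 0.403% and 1.51% to 1.74%.

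The glycine carrier Slc6a9 (chr4:117834506-117875198, plus strand) was low in both ages. It had 98.0, 79.5 and 96.5 normalized counts in old libraries and 99.6, 92.1 and 108 in young ones, and the groups overlapped. The log2 difference was -0.13 ± 0.14 (SE, 95% interval -0.44 to 0.18, adjusted p = 0.481), so a fall or rise of the size seen in Slc7a1 lies outside the interval. Its exons share 1429 bases, 27.8% of their length, with Ccdc24 on the opposite strand, which has no row in the table. They also share 511 bases (9.9%) with Gm17114, likewise without a row, and 46 bases with B4galt2, both on the opposite strand. The counts of Slc6a9 are uncertain over these stretches.

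Ordered by level per length, Slc3a2 was first in both ages and Slc1a4 last, at 4.18 ± 0.406 TPM in young and 0.625 ± 0.132 TPM in old libraries (SD, n = 3 each). In young libraries Slc38a2 followed at 125.0 ± 2.01 TPM, then Slc7a11 at 86.8 ± 6.96 and Slc7a5 at 82.9 ± 7.67, whose ranges overlapped. Slc1a5 came next at 45.7 ± 1.26 TPM. Slc38a1 at 34.3 ± 1.43, Slc7a7 at 31.9 ± 1.72 and Slc7a1 at 31.4 ± 1.11 came next, where the range of Slc7a7 overlapped both others and that of Slc38a1 lay above that of Slc7a1. Slc6a9 stood at 5.60 ± 0.312 TPM. In old libraries Slc38a2 at 85.9 ± 6.44 and Slc7a11 at 78.1 ± 8.96 TPM overlapped, as did Slc1a5 at 34.3 ± 2.89 and Slc7a7 at 33.3 ± 1.95. Below them lay Slc38a1 at 22.6 ± 1.79, Slc7a1 at 10.1 ± 1.66, Slc7a5 at 7.12 ± 0.765 and Slc6a9 at 4.70 ± 0.785 TPM. Slc7a5 thus ranked 4 of 10 in young and 8 of 10 in old macrophages. With the median transcript length its rank was 2 in young and 8 in old, and that of Slc38a2 was 5 in both ages. Slc3a2 stayed first and Slc1a4 last on either length.

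By distance over the 6 libraries of log2 values centred on each gene, the named features closest to Slc7a5 were Depdc1a (0.270), Ccnb2 (0.371) and Pimreg (0.380). Their log2 differences between ages were -3.42, -3.45 and -3.40, beside -3.40 for Slc7a5. Such nearness was built into the choice, as the distance was taken over the same 6 libraries. Depdc1a averaged 7.07 normalized counts in old libraries and 85.1 in young ones, and reached the filter of 10 only through the young libraries. The proliferation markers, which are other genes, were lower in old libraries in 10 of 10 cases with a median log2 difference of -2.52. The highest of them, Mki67, lay at 1279 to 1453 normalized counts in old libraries and 11069.8 to 12169 in young ones. Their part in the fall of Slc7a5 was not tested.

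Among other amino acid transporters more genes were higher than lower in old macrophages. Of 60 others listed, 42 were in the table and 27 were tested. Of these, 13 were higher and 3 lower in old libraries, beside 17.9% and 17.6% of all features. Their median log2 difference was 0.28. Of the higher calls, Sfxn2, Sfxn3 and Slc66a1 were lost without any of old replicates 1 and 2 and young replicates 1 and 2. The count of higher genes then fell to 10 or 11, where 12.2% to 13.4% of all features were higher. Sfxn3 was also lost without old replicate 3 or without young replicate 3. With DESeq2 on recovered reads Sfxn2, Sfxn3 and Slc66a1 were all lost, and 10 genes were higher beside 15.8% of all features. Without old replicate 3 the lower count rose to 5, where 24.6% of all features were lower. Among 8 tested carriers of the plasma membrane, 5 were higher and 2 lower. Among the 5, Slc6a13, had 17.8 normalized counts in old libraries and 2.37 in young ones on average, and passed the filter only through the old libraries. Slc6a12, a betaine and GABA carrier, rose 7.20-fold in old libraries, to 272 ± 19.7 from 37.8 ± 3.52 normalized counts (SD, n = 3 each, adjusted p = 3.80e-07). Slc16a10, which carries aromatic amino acids, rose 1.63-fold to 1743 ± 66.7 from 1072 ± 26.8 (adjusted p = 2.94e-05). The taurine carrier Slc6a6 was also higher, by 0.43 on the log2 scale (adjusted p = 0.00157), though by 0.16 with quantile normalization, where it did not pass (0.0541). Slc7a8, a light chain with substrates like those of Slc7a5, fell 1.57-fold to 2387 ± 102 from 3744 ± 90.3 (adjusted p = 5.32e-05), and Slc7a2 is given above. Slc7a6 had a log2 difference of -0.19 and did not pass (adjusted p = 0.0832).

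Of 10 tested lysosomal and vesicular carriers, 4 were higher and 1 lower in old libraries, beside 17.9% and 17.6% of all features. The cystine exporter Ctns rose 1.56-fold (adjusted p = 0.000212), the histidine and peptide carrier Slc15a4 1.39-fold (0.000772) and Mfsd12, needed for cysteine import into lysosomes, 1.31-fold (0.00496). Slc15a3 fell 1.17-fold (adjusted p = 0.0195). It did not pass without old replicate 1, old replicate 2, young replicate 2 or young replicate 3 (adjusted p = 0.0529 to 0.0900). Of these carriers 3 were lower without old replicate 3, where 24.6% of all features were lower. Of 9 tested mitochondrial carriers, 4 were higher and 0 lower, among them the aspartate and glutamate carriers Slc25a12 (log2 difference 0.50, adjusted p = 0.00305) and Slc25a13 (0.42, 0.00866). Sfxn2 was the third by p (0.31, adjusted p = 0.0403). Sfxn2 did not pass with DESeq2 (0.129), no filter (0.0599) or limma without the trend (0.0508). The count of higher mitochondrial carriers was 2 when any of old replicates 1 and 2 and young replicates 1 and 2 was left out. In those fits 12.2% to 13.4% of all features were higher.

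**Figure D3:**
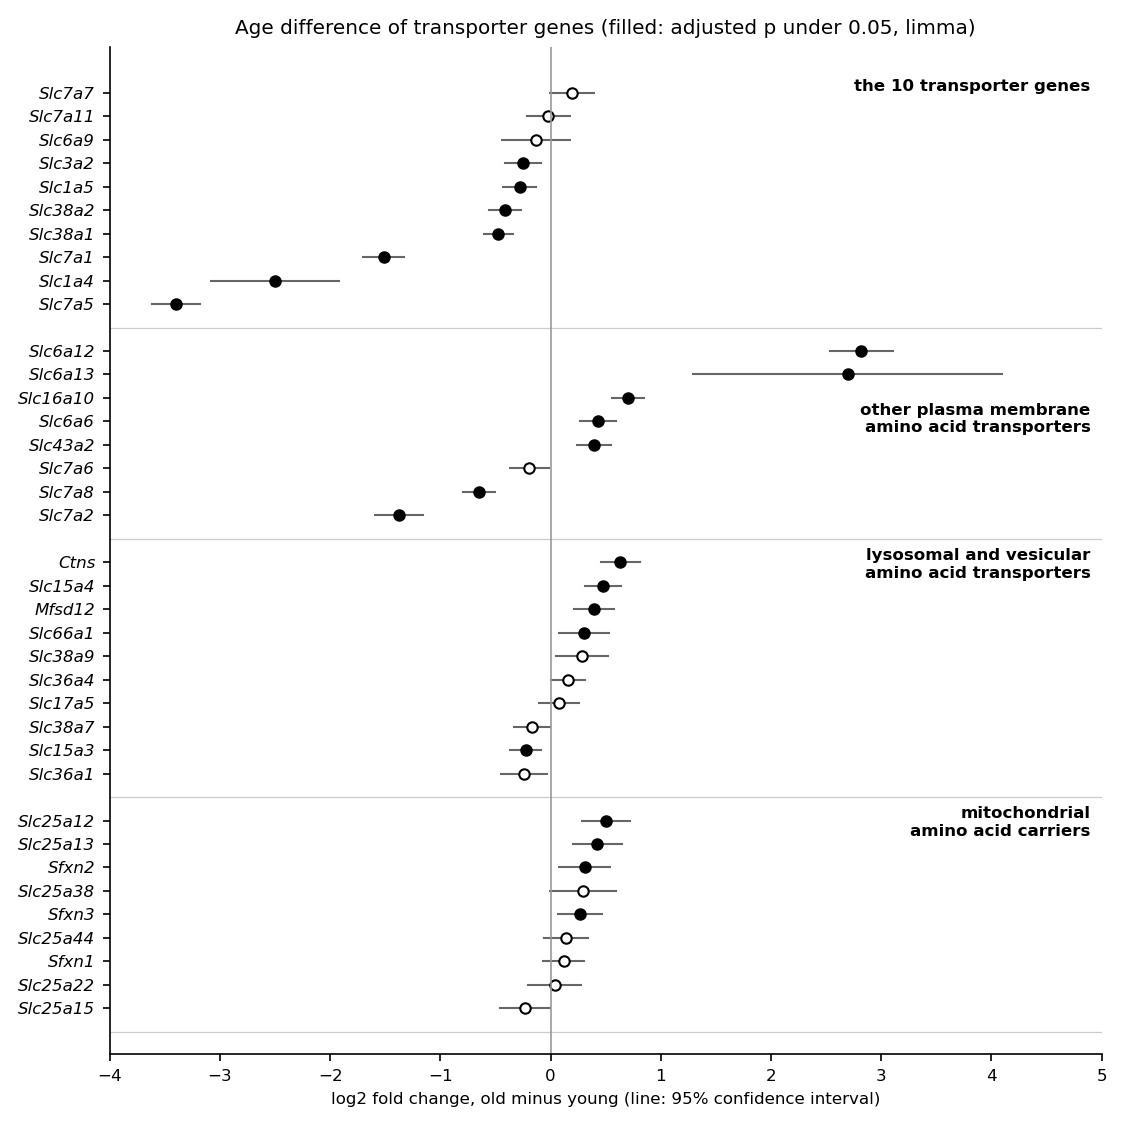
Log2 fold change, old minus young (horizontal axis), with its 95% confidence interval for the 10 transporter genes and for the 27 other amino acid transporters tested, filled where the adjusted p was under 0.05. The 7 filled genes of the top block lie left of 0, while 13 of the 16 filled genes below lie right of it.

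Calls among the genes of amino acid use and sensing around the carriers went in both directions. The counts stand beside 17.9% of all tested features higher and 17.6% lower in old libraries. Of 11 tested enzymes of glutamine, glutamate and aspartate, 4 were lower and 1 higher in old libraries. Asparagine synthetase, Asns, fell 5.93-fold, to 245 ± 24.1 from 1451 ± 219 normalized counts (SD, n = 3 each, adjusted p = 4.13e-07). Cad, of pyrimidine synthesis, fell by 0.38 on the log2 scale (adjusted p = 0.00386), and the transaminase Got1 by 0.36 (0.0104, and 0.0518 without old replicate 1). Glutamine synthetase, Glul, rose 1.87-fold to 3237 ± 321 from 1729 ± 190.2 (adjusted p = 0.000110). Of the enzymes 2 were higher without old replicate 3 or young replicate 3, where 23.6% and 17.6% of all features were higher. Of 14 tested genes of branched-chain amino acid breakdown, which lies downstream of Slc7a5 substrates, 2 were higher and 0 lower. Neither count is above the share over all features. The higher genes were Acadsb (0.36 on the log2 scale, adjusted p = 0.0129) and Hibadh (0.24, 0.0307). Neither gene passed without old replicate 1 or without old replicate 2. Hibadh also did not pass without any 1 of the young libraries or with DESeq2 (0.0927).

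Of 10 tested genes of glutathione synthesis and turnover, the pathway supplied by Slc7a11, 5 were higher and 2 lower in old libraries. Over all features the shares were 17.9% and 17.6%. The exporter Abcc1 rose 1.66-fold (adjusted p = 3.11e-05), glutathione reductase Gsr 1.55-fold (0.000107) and glutathione synthetase Gss 1.61-fold (0.000617). The lower genes were Slc25a40, a mitochondrial glutathione carrier (log2 difference -0.53, adjusted p = 0.0279), and Chac1, which degrades glutathione (-1.14, 0.0394). Both lower calls were lost when old replicate 2, young replicate 1 or young replicate 2 was left out, and that of Chac1 also without young replicate 3. In limma without the trend the adjusted p was 0.0517 for Slc25a40 and 0.0598 for Chac1, which also did not pass with DESeq2 (0.0587) or quantile normalization (0.103).

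Of 32 tested genes of amino acid sensing upstream of mTORC1, 10 were higher and 3 lower in old libraries. All features tested were 17.9% higher and 17.6% lower, so the lower count is below its share. Bmt2, a methionine cofactor sensor, rose 2.00-fold (adjusted p = 3.51e-06), the sestrin Sesn1 1.59-fold (0.000853) and Lamtor4, of the complex that anchors mTORC1 to lysosomes, 1.56-fold (0.00253). Sesn2, a leucine sensor and a known Atf4 target, fell 1.62-fold, to 176 ± 22 from 286 ± 8.0 normalized counts (SD, n = 3 each, adjusted p = 0.000887). Depdc5 fell by 0.39 on the log2 scale (adjusted p = 0.00765). Itfg2 fell by 0.48 (0.0348) but did not pass when any library other than old replicate 3 was left out, nor with DESeq2 (0.109), quantile normalization (0.0548), median centring (0.0594) or no filter (0.0567). The count of higher genes ran from 5 (without young replicate 2) to 11 with 1 library left out, and was 6 without old replicate 1 or old replicate 2. Over all features the higher share in these fits ran from 12.2% to 23.6%. Without old replicate 3 the lower genes numbered 6, where 24.6% of all features were lower.

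Of 17 tested regulators known to act on transporter genes, 5 were higher and 6 lower in old libraries, beside 17.9% and 17.6% of all features. Atf5 fell 1.98-fold (adjusted p = 2.84e-05), Trib3 2.56-fold (0.000629) and Eif2ak4, the kinase Gcn2 that senses uncharged transfer RNA, 1.46-fold (0.00451). Mitf rose 1.77-fold (adjusted p = 1.04e-05) and Bach1, a repressor at antioxidant response elements, 1.27-fold (0.00471). Ddit3 rose by 0.38 on the log2 scale (adjusted p = 0.0284) but not without old replicate 1 or any of young replicates 1, 2 and 3, nor with DESeq2 (0.112). Atf4 itself, named after its value was seen, had 1954 ± 140.0 normalized counts in old libraries and 2218 ± 154 in young ones (SD, n = 3 each, adjusted p = 0.103). The list's higher count fell from 5 to 2 without young replicate 1 or young replicate 2. It fell to 3 without old replicate 1, old replicate 2 or young replicate 3. In those fits 12.2% to 17.6% of all features were higher.

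**Figure D4:**
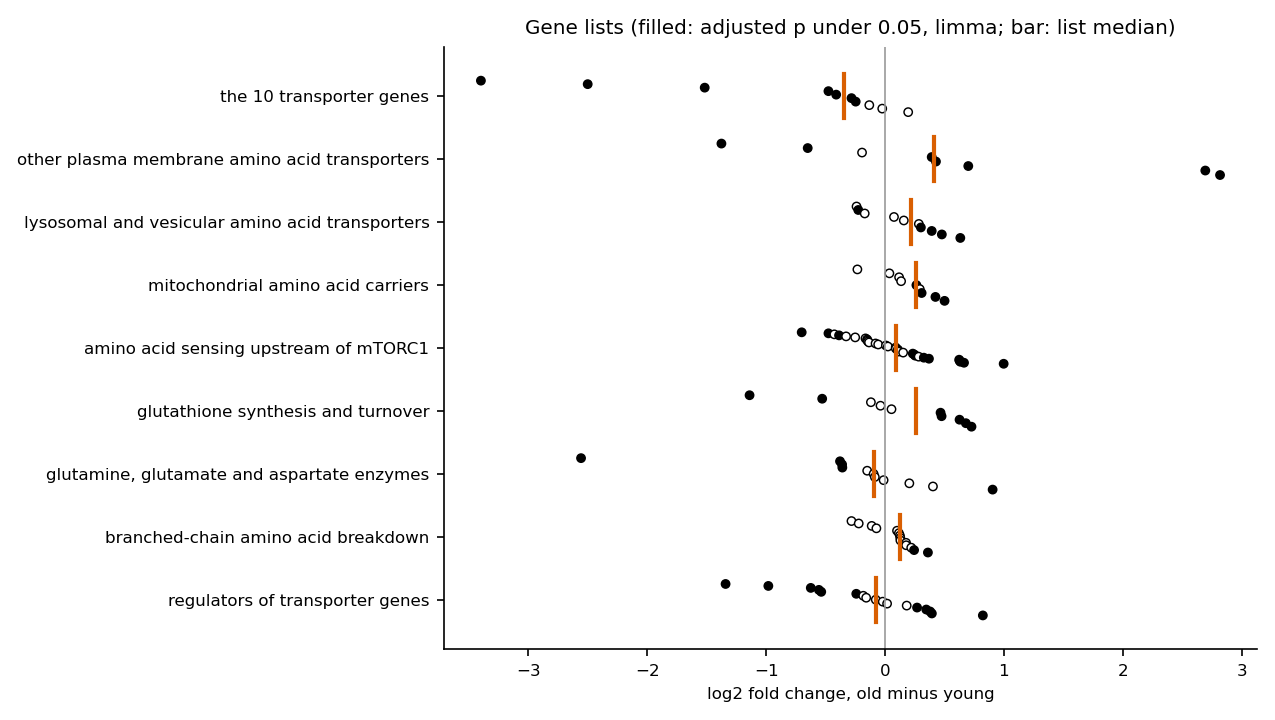
Log2 fold change, old minus young (horizontal axis), of every tested gene in the 10 transporter genes and 8 related lists, filled where the adjusted p was under 0.05, with the list median as a bar. The median of the 10 genes lies at -0.35, and those of the other transporter lists lie right of 0, from 0.22 to 0.41.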

How the data were processed

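RNA of 6 libraries had been sequenced after TruSeq preparation, per the labels. The deposited table holds signal values, that is read counts which the authors had divided by a size factor per library, as the values show. DESeq2 and mm10 are named in the submitters' processing notes. For aligner, counter, annotation release and strandedness the entry is "not given in the sources used here". Dividing by each column's step returned whole reads for 100% of values, within 0.01 reads. Of 19973 identifiers, 19917 matched a symbol. Positions come from GENCODE M21 on GRCm38.

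Old and young were compared in R 4.3.3 by limma-trend (limma 3.58.1) on log2(normalized count + 1), which understates changes of low genes. Only features averaging 10 or more were tested (11795, with 8178 below). P-values were adjusted by Benjamini-Hochberg over all tested features, at 0.05. Fold values are ratios of mean normalized counts. No libraries agreed within sampling noise: the median chi-square was 1.49 to 4.69 times noise within an age. Intervals cover the spread between libraries only.

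The 18 alternatives varied pseudocount, filter, scaling, variance model and libraries, or ran edgeR 4.0.16 and DESeq2 1.42.0 on recovered reads, and the fit was tested on simulated data. The members, lists and alternatives were chosen with earlier results of these data known. From each list up to 3 passing genes per direction with the smallest adjusted p are named. Libraries with equal replicate numbers did not deviate together (correlations -0.68 to -0.36).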

Additional observations from a re-analysis of the deposited data

How the results depend on the processing

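Over the 18 alternatives, Slc7a5, Slc7a1, Slc38a1 and Slc38a2 kept their direction and passed each time, and Slc1a4 did so in the 17 where it was tested (not with a mean of at least 50). The 7 lower genes became 6 without Slc3a2 in limma without the trend. No transporter gene was higher, except Slc7a7 (1 gene) with quantile normalization, median centring, array quality weights, without young replicate 3 and without both libraries numbered 3. With 1 library left out, the lower count ran from 6 to 7 and the higher count from 0 to 1. In those fits 12.6% to 24.6% of all features were lower and 12.2% to 23.6% higher. The log2 difference of Slc7a11 turned to 0.031 with median centring, and ran from -0.11 to 0.027 with 1 library left out. The cause was not tested. Among other transporters, 7 of 27 were lower with array quality weights (31.9% of all features) and 5 without both libraries numbered 3 (28.8%), and 2 to 5 with 1 library left out. The edgeR and DESeq2 tests on recovered reads called the same 7 transporter genes lower. With the median transcript length, Slc7a5 ranked 2 in young and took 4.56% and 30.9% of light chain transcripts in old and young. Replicate numbers did not pair the samples: with the replicate block, 5 of the 10 genes and 11.5% of all features were lower, without Slc3a2 (adjusted p = 0.131) and Slc1a5 (0.0708), and no library correlated best with its own number. Depth limits Slc1a4, with 6 to 10 reads per old library.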
